A study of Mus musculus with 15 samples.

Results

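The comparison described here is that of brown adipose tissue lacking DJ-1 with flox control tissue in mice housed at room temperature. Its members were the 8 room-temperature libraries of a series of 15, chosen by their labels: 4 from mice with a brown-fat-specific DJ-1 knockout (KO) and 4 from flox mice without it (WT). The other 7 libraries, 4 WT and 3 KO, came from mice kept at 29 °C; as the labels word the design, both housing conditions lasted 8 weeks. Strain, sex, age, the Cre line that drives the deletion and the hour of tissue collection are not given in the sources used here. The labels do not state that replicates are separate animals, so a p-value here measures the spread among these libraries, which may be technical.

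Brown fat burns lipid to make heat through the mitochondrial uncoupling protein UCP1, and room temperature is already a mild cold load for a mouse. The Park7 gene encodes DJ-1, which senses oxidants, guards mitochondria and is lost in an inherited form of Parkinson disease. Brown fat also holds a dense capillary bed, nerve fibres and its own circadian clock, so a bulk library mixes several cell types. In such libraries fewer cells of a type and less RNA per cell cannot be told apart.

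Levels are given in CPM (each library's TMM-scaled counts brought to one total), and effects as the log2 fold change of KO against WT ± SE from 1 edgeR quasi-likelihood model over all 15 libraries. A gene was called at a Benjamini-Hochberg adjusted p under 0.05 over the 15083 genes tested. Total estimated counts were between 26229186 and 26789246 in the 8 libraries, and mitochondrially encoded transcripts took 25.2% to 27.4% of them in WT and 22.7% to 25.2% in KO, with KO replicates 2 and 4 the lowest at 22.7% and 23.1%. On the first principal component of the 8 libraries, with 27.6% of the variance, KO replicates 2 and 4 scored 45.1 and 34.2. KO replicates 1 and 3 scored -3.8 and -3.7, and the WT libraries between -26.2 and -7.7. Every KO library thus lay above every WT library on it, KO replicates 1 and 3 by little. The second component, with 16.4%, had KO replicate 3 at -40.2, farther from 0 than any other library. KO replicates 2 and 4 therefore stood apart from all other libraries at this temperature, KO replicates 1 and 3 included, and the results below are given with and without them where that matters.

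**Figure D1:**
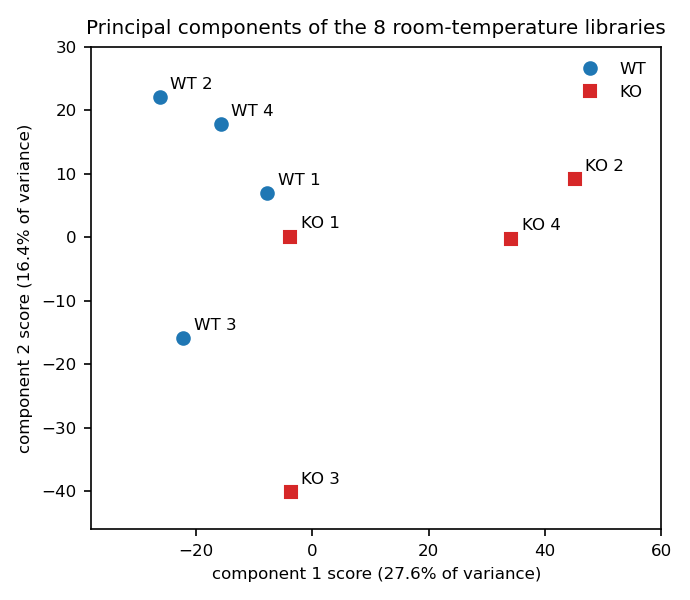
Scores of the 8 room-temperature libraries on the first and second principal components of log2 CPM over all genes tested, 1 point per library. KO replicates 2 and 4 lie at 45.1 and 34.2 on the first axis, apart from the 6 other libraries, and KO replicate 3 lies at -40.2 on the second.

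Park7 was examined first because it checks the genotype labels. The gene lies on the minus strand of chromosome 4 at chr4:150897133-150914437 (GRCm38, mm10). Its level was 111, 108, 112 and 109 CPM in WT replicates 1 to 4 and 26.7, 34.1, 24.98 and 26.9 CPM in KO replicates 1 to 4. Every KO library lay far below every WT library, and the KO mean was 25.6% of the WT mean (two-sided exact permutation p = 0.0286, the lowest possible with 70 arrangements). The log2 fold change was -1.97 ± 0.12 (edgeR adjusted p = 1.513e-07), and KO replicates 2 and 4 carried no less of the transcript than KO replicates 1 and 3. From which cells the remaining Park7 transcript came was not tested.

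Loss of Park7 at room temperature was accompanied by few changes that passed the test. Besides Park7 itself, the genes that fell the most with a known symbol were Ppp1r3g, Gem and Btc, and those that rose the most were Fam46a, E2f2 and Arntl. In all 36 of 15083 genes were called (0.239%), 28 lower in KO (0.186%) and 8 higher (0.053%). With RLE size factors in place of TMM the split was 28 lower and 2 higher, and DESeq2 called 139 lower and 97 higher. A fit of the 8 room-temperature libraries alone called 26 genes, and 18 of them were among the 36. Of the 36 genes 31 exceeded 1.5-fold and 13 exceeded 2-fold, and 3 carried predicted-gene symbols. The median absolute log2 fold change was 0.86 over the 36 genes, with a range of 0.43 to 3.35, and 0.14 over all genes tested. KO and WT libraries did not overlap for any of the 36, against 1239 of all genes (8.21%). At an unadjusted p under 0.05 stood 1678 genes (11.1%), 906 higher and 772 lower.

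**Figure D2:**
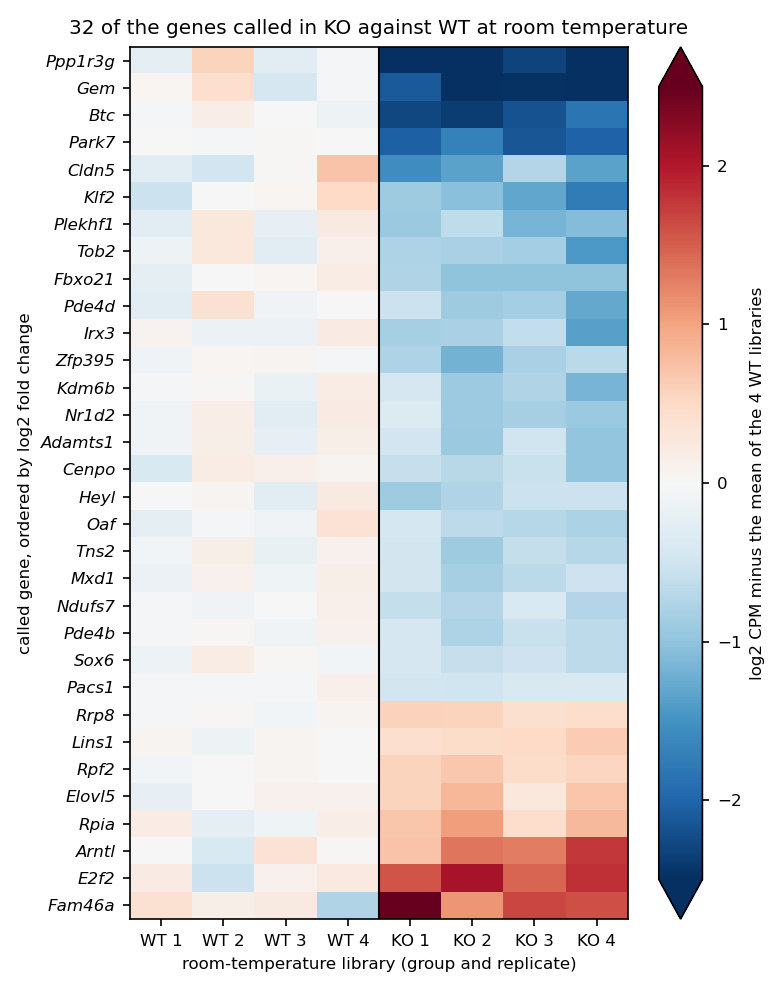
Log2 CPM of 32 of the 36 called genes in each room-temperature library, as the difference from the mean of the 4 WT libraries; red is higher and blue lower, and genes are ordered by log2 fold change. The 3 predicted genes and 1 other called gene are not drawn. The 4 KO columns share the sign of the fold change for the genes at the top and bottom, from Ppp1r3g at -3.05 to Fam46a at 1.77.

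Besides Park7, only Btc, Gem and E2f2 kept their call when any 1 of the 15 libraries was left out. Btc encodes betacellulin, a ligand of the EGF family that activates EGFR and ErbB4, and lies at chr5:91357261-91402994 on the minus strand. It measured 8.69, 10.01, 8.98 and 8.23 CPM in WT replicates 1 to 4 and 1.85, 1.73, 1.97 and 2.52 CPM in KO replicates 1 to 4. The KO libraries were low without exception and close to one another, 4.43-fold below WT (log2 fold change -2.15 ± 0.18, edgeR adjusted p = 1.176e-05). Leaving out KO replicates 2 and 4 gave -2.23 (edgeR adjusted p = 0.0006957). Of the 10 tested genes for EGF ligands and ErbB receptors Btc alone was called, and the list's median log2 fold change was -0.16 against 0.01 for all genes. The ligand genes Hbegf and Nrg2 gave -0.63 ± 0.28 and 1.01 ± 0.36, neither past the test.

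Gem, a small GTPase that restrains voltage-gated calcium channels, lies at chr4:11704457-11714752 on the plus strand. Its level was 9.68, 12.5, 7.01 and 9.18 CPM in WT replicates 1 to 4 and 2.20, 0.717, 1.69 and 0.853 CPM in KO replicates 1 to 4. No KO library reached the lowest WT library, and KO replicates 2 and 4 were the lowest of all. The log2 fold change was -2.81 ± 0.30 (edgeR adjusted p = 0.0003175) with all libraries and -2.30 (edgeR adjusted p = 0.004647) without those 2 libraries.

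E2f2, a transcription factor that drives genes of DNA replication, was the most stable of the genes that rose. It lies at chr4:136172394-136196057 on the plus strand and measured 8.60, 5.15, 8.06 and 8.88 CPM in WT replicates 1 to 4. In KO replicates 1 to 4 it measured 22.3, 31.3, 20.5 and 26.7 CPM, all above the highest WT library, which is a 3.28-fold rise. Its log2 fold change was 1.71 ± 0.18 (edgeR adjusted p = 0.0001916), and 1.48 (edgeR adjusted p = 0.005882) when KO replicates 2 and 4 were left out. Among 13 tested E2F factors and pocket proteins no other gene was called and the median was 0.12. The related factor E2f3 had a log2 fold change of 0.24 ± 0.13.

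The circadian clock genes held one called gene in each of its arms. In this oscillator BMAL1, the product of Arntl, activates its repressors PER and CRY together with REV-ERB genes such as Nr1d2, and REV-ERB proteins in turn repress Arntl. Arntl measured 4.38, 3.39, 5.67 and 4.502 CPM in WT replicates 1 to 4 and 7.24, 11.1, 10.8 and 14.9 CPM in KO replicates 1 to 4. All KO libraries were above all WT libraries, a 2.46-fold rise (log2 fold change 1.30 ± 0.25, edgeR adjusted p = 0.04961). Nr1d2, which encodes REV-ERBβ, measured 91.1, 108, 81.0 and 111 CPM in WT and 76.8, 52.0, 55.0 and 51.2 CPM in KO, each from replicate 1 to 4. Here KO replicate 1 came near the lowest WT library while the other KO libraries lay well below. Nr1d2 fell by 0.74 ± 0.13 on the log2 scale (edgeR adjusted p = 0.02428). Without KO replicates 2 and 4 Arntl gave 1.004 (edgeR adjusted p = 0.5193) and Nr1d2 -0.572 (edgeR adjusted p = 0.5008), neither past the test. Arntl was called in 1 and Nr1d2 in 4 of the 8 fits that leave out a room-temperature library. The limma-voom fit called Nr1d2 but not Arntl.

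Their promoters are shown because the 2 genes moved in opposite directions within one loop. Each run covers 300 bases around an annotated start from RefSeq (GRCm38.p6), 5′ to 3′ on the gene's strand, with capitals marking AGGTCA, the core letters that REV-ERB and ROR receptors recognise.
Arntl, start no. 2, chr7:113207261-113207560, plus strand: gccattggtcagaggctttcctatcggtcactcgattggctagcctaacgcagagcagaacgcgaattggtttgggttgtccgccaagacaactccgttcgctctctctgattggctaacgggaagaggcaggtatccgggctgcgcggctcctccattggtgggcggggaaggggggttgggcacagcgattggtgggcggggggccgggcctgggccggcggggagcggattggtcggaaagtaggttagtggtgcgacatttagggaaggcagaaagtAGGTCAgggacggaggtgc
Nr1d2, chr14:18239057-18239356, minus strand: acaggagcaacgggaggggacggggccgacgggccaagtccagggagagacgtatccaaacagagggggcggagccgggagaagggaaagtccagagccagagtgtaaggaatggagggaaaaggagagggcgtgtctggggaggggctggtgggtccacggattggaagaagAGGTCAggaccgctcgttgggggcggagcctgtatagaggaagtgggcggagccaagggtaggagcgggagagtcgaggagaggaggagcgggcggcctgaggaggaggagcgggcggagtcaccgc
The match lies 31 bases after the Arntl start and 77 bases before the Nr1d2 start. AGGTCA was found on either strand in 16.3% of 32851 promoters of this length, so a match is common. The E-box CACGTG (7.15% of promoters) and the D-box TTATGTAA (0.938%) had no match in these windows, and a further Arntl start held none of the 3 motifs. These matches are letters only, and no binding was measured.

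Other clock genes did not pass the test but most repressor and output genes had values below 0. Of 11 tested repressor and output genes 1 was called, all 11 had a log2 fold change below 0, and the median was -0.74; over all genes tested 7227 of 15083 were below 0. In the KO libraries the list's median lay at -0.57, -0.73, -0.59 and -1.05 relative to the WT mean in replicates 1 to 4, and in the WT libraries between -0.24 and 0.20. All KO libraries were thus below all WT libraries on this list, and without KO replicates 2 and 4 its median was -0.57. Per1, a light- and hormone-responsive repressor, measured 48.0, 99.7, 53.9 and 91.0 CPM in WT and 27.2, 26.7, 14.3 and 10.7 CPM in KO, with no overlap but an edgeR adjusted p of 0.06212. Ciart, Dbp and Per3 gave -1.39 ± 0.30, -1.03 ± 0.34 and -0.87 ± 0.21, also short of the threshold. Nr1d1, which encodes REV-ERBα, stood at -0.04 ± 0.31 and its groups overlapped. Among the 8 activators and evening genes Arntl was the only call, the median was 0.27, and Npas2, a partner of BMAL1, gave 0.50 ± 0.26.

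Klf2 and Cldn5, both known from endothelium, fell in the KO libraries. Klf2, a factor that blood flow induces in endothelium, measured 46.7, 67.5, 70.1 and 95.8 CPM in WT and 36.9, 32.7, 27.5 and 20.3 CPM in KO, replicates 1 to 4 in order. Cldn5, the claudin of endothelial tight junctions, measured 42.0, 36.0, 51.7 and 83.2 CPM in WT and 17.1, 20.1, 30.5 and 20.1 CPM in KO. For both genes the highest KO library stayed below the lowest WT library, and WT replicate 4 was the highest of all. Klf2 fell by 1.26 ± 0.20 (edgeR adjusted p = 0.02158) and Cldn5 by 1.28 ± 0.23 (edgeR adjusted p = 0.04227) on the log2 scale. Adamts1, a secreted metalloprotease, and Heyl, a repressor downstream of Notch, fell by 0.71 ± 0.12 and 0.69 ± 0.13. Without KO replicates 2 and 4 these genes gave -1.12 for Klf2, -1.16 for Cldn5, -0.50 for Adamts1 and -0.71 for Heyl, none past the test.

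The values of endothelial markers bear on these genes. Of 13 tested endothelial markers only Cldn5 was called, but all 13 had a log2 fold change below 0, with a median of -0.16. Their summed share of counts was 0.0745% to 0.0931% in WT libraries and 0.0623% to 0.0805% in KO libraries, ranges that overlap. Their part in the lower Klf2 and Cldn5 was not tested. Among 24 tested immediate-early and shear-responsive genes Gem and Klf2 were called, 20 were below 0, and the median was -0.54. The orphan nuclear receptor genes Nr4a3 and Nr4a1 had large log2 fold changes of -2.70 ± 0.54 and -1.63 ± 0.76 that did not pass. Nr4a1 measured 601, 618, 461 and 608 CPM in WT and 391, 199, 140 and 10.2 CPM in KO, so the KO libraries were all lower yet spread widely, with KO replicate 4 far below the rest.

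Among genes of glycogen and cyclic AMP metabolism 3 fell. Ppp1r3g, a subunit that brings protein phosphatase 1 to glycogen, had the lowest levels of these: 2.36, 4.08, 2.31 and 2.73 CPM in WT and 0.474, 0.211, 0.564 and 0.122 CPM in KO. KO replicates 2 and 4 were again the lowest libraries and the groups did not overlap. It fell by 3.05 ± 0.47 on the log2 scale (edgeR adjusted p = 0.01521), and gave -2.45 (edgeR adjusted p = 0.3453) without those libraries. The other glycogen-targeting subunits had values of either sign and none was called; Ppp1r3b gave 1.11 ± 0.37 and Ppp1r3c 0.70 ± 0.15, the smallest p-values among them. Over 23 tested glycogen genes the median was 0.00, with 11 above and 12 below 0.

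Pde4d and Pde4b encode phosphodiesterases that break down cyclic AMP, the second messenger of noradrenaline in brown fat. Pde4d measured 191, 301, 216 and 228 CPM in WT and 159, 124, 127 and 94.8 CPM in KO. Pde4b had 16.3, 17.1, 15.9 and 18.2 CPM in WT and 12.6, 9.82, 11.4 and 10.8 CPM in KO. No library of one group lay within the other for either gene. Pde4d fell by 0.89 ± 0.16 (edgeR adjusted p = 0.03348) and Pde4b by 0.60 ± 0.12 (edgeR adjusted p = 0.04707) on the log2 scale. Of 16 tested phosphodiesterase genes 14 were below 0, with a median of -0.30 that became -0.17 without KO replicates 2 and 4. Pde7b, of the same family, gave -0.77 ± 0.23 with overlapping groups.

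Other genes that fell encode regulators of transcription or of mRNA. Tob2, an antiproliferative protein that recruits mRNA deadenylases, measured 318, 414, 290 and 380 CPM in WT and 203, 199, 192 and 128 CPM in KO. The KO libraries were all below the WT libraries, KO replicate 4 lowest, and the gene fell by 0.96 ± 0.14 (edgeR adjusted p = 0.01311). Its call was lost in only 1 of the 15 fits that leave out a library, that without WT replicate 2. Kdm6b, a demethylase of histone H3 lysine residues, Irx3, a homeobox factor, and Sox6, an HMG-box factor, fell by 0.80 ± 0.13, 0.89 ± 0.16 and 0.54 ± 0.09. Mxd1, a partner of MAX that opposes MYC, and the zinc finger protein gene Zfp395 fell by 0.62 ± 0.11 and 0.84 ± 0.16. Of the 8 fits that leave out a room-temperature library, 4 called Mxd1 and none called Zfp395.

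Fbxo21, a substrate adaptor of a ubiquitin ligase, measured 170, 201, 206 and 229 CPM in WT and 118, 100, 100 and 99.3 CPM in KO, with KO replicate 1 set apart above the other KO libraries. It fell by 0.95 ± 0.17 (edgeR adjusted p = 0.02918). Plekhf1, a lipid-binding protein of endosomes and lysosomes, and Tns2, a tensin of focal adhesions, fell by 0.96 ± 0.18 and 0.66 ± 0.11. Pacs1, a sorting protein of the Golgi network, fell least, by 0.43 ± 0.08, and was called in none of the 8 fits that leave out a room-temperature library. Oaf fell by 0.67 ± 0.12 and the centromere protein gene Cenpo by 0.71 ± 0.13.

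Fam46a, in the current annotation Tent5a, a noncanonical poly(A) polymerase, had the highest fold change among genes that rose. It measured 17.2, 14.5, 15.3 and 7.84 CPM in WT and 77.3, 28.2, 41.7 and 40.0 CPM in KO. The groups did not overlap, but KO replicate 1 was far above the next KO library. The log2 fold change was 1.77 ± 0.33 (edgeR adjusted p = 0.04966), and the call held in 1 of the 15 fits that leave out a library.

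Genes of ribosome assembly supplied 2 of the 8 genes that rose. Rpf2, which places the 5S ribonucleoprotein in the young large subunit, measured 6.78, 7.09, 7.43 and 7.14 CPM in WT and 10.4, 11.3, 9.79 and 10.4 CPM in KO. Rrp8, a nucleolar methyltransferase of ribosomal RNA, measured 11.6, 12.0, 11.2 and 12.3 CPM in WT and 17.7, 17.4, 15.6 and 16.0 CPM in KO. Both groups were tight and separate, with log2 fold changes of 0.56 ± 0.11 (edgeR adjusted p = 0.04227) and 0.50 ± 0.10 (edgeR adjusted p = 0.04057). Without KO replicates 2 and 4 they were 0.51 and 0.50, no longer called. Each gene was called in only 1 of the 8 fits that leave out a room-temperature library. Of 33 tested assembly genes 26 were above 0, and the median of 0.12 was 0.18 without KO replicates 2 and 4. Polr1a, the catalytic subunit of RNA polymerase I, gave 0.41 ± 0.10, short of the threshold. Lins1 also rose, by 0.50 ± 0.10 on the log2 scale, and was likewise called in only 1 of those 8 fits.

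Lipid and sugar metabolism supplied a further 2 genes that rose, and here KO replicates 2 and 4 were the highest. Elovl5, which elongates polyunsaturated fatty acids, measured 164, 186, 204 and 203 CPM in WT and 277, 334, 228 and 306 CPM in KO. Rpia, the ribose-5-phosphate isomerase of the pentose phosphate pathway, measured 31.1, 23.0, 25.1 and 30.4 CPM in WT and 44.0, 55.8, 37.0 and 47.4 CPM in KO. For both genes KO replicate 3 was closest to WT, and the log2 fold changes were 0.60 ± 0.12 (edgeR adjusted p = 0.04541) and 0.75 ± 0.12 (edgeR adjusted p = 0.01587). Without KO replicates 2 and 4 they were 0.42 and 0.56, no longer called. In the pentose phosphate list of 11 tested genes the median was 0.10 with all libraries and 0.01 without those 2 libraries. Its oxidative enzymes Pgd and G6pdx gave 0.71 ± 0.29 and 0.49 ± 0.17, and overlapped between groups.

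For 19 tested genes of fatty acid synthesis and elongation the median was 0.48, with 18 above 0, and it dropped to 0.08 without KO replicates 2 and 4. In single libraries this list stood at 0.27, 0.82, -0.01 and 0.68 in KO replicates 1 to 4 and between -0.23 and 0.13 in WT, so KO replicate 3 lay within the WT range. The summed share of 7 white adipocyte markers was also highest in KO replicates 2 and 4, at 0.0257% and 0.0280%. It was 0.0136% to 0.0214% in WT and 0.0204% and 0.0124% in KO replicates 1 and 3. Much of this came from Lep, at 77.8 and 68.7 CPM in KO replicates 2 and 4 and 24.5 and 5.96 CPM in KO replicates 1 and 3. Of the other abundant markers, Retn was highest in KO replicate 1 (96.4 CPM). In KO replicates 2 and 4 Retn measured 78.7 and 80.7 CPM, against at most 75.6 CPM in WT and 38.4 CPM in KO replicate 3. Npr3 was highest in KO replicate 4 (99.96 CPM), but no higher in KO replicate 2 (83.4 CPM) than in WT replicate 1 (83.6 CPM). The part of the white adipocyte marker share in these results was not tested. All 23 tested cholesterol synthesis genes were above 0, median 0.45, and none was called; at an unadjusted p under 0.05 stood 10. Their median was 0.19 without KO replicates 2 and 4, and those 2 libraries were the farthest from the WT mean for 82.6% of the members, against 32.9% of all genes. Hsd17b7 and Msmo1, enzymes of the later steps, gave 0.75 ± 0.15 and 0.66 ± 0.15.

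Respiratory chain and heat-producing genes gave 1 call. Ndufs7, a core subunit of complex I, measured 246, 236, 252 and 275 CPM in WT and 166, 152, 194 and 151 CPM in KO. All KO libraries were lower, KO replicate 3 the least, and the gene fell by 0.61 ± 0.10 on the log2 scale (edgeR adjusted p = 0.01521). Of 48 tested nuclear-encoded respiratory subunits 47 were below 0, but the median was only -0.13, and -0.07 without KO replicates 2 and 4. None of the 27 tested thermogenic genes was called, with 6 at an unadjusted p under 0.05, and their median of -0.24 became 0.00 without those 2 libraries.

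Ucp1 shows this dependence for a single gene. It measured 8008, 8717, 7689 and 9992 CPM in WT and 9644, 4953, 8630 and 4778 CPM in KO, so that KO replicates 1 and 3 lay inside the WT range and KO replicates 2 and 4 below it. The log2 fold change was -0.30 ± 0.21 with all libraries and 0.09 without KO replicates 2 and 4. Dio2, which activates thyroid hormone, and Ppargc1a, a coactivator of mitochondrial genes, gave -0.94 ± 0.63 and -0.66 ± 0.39 with overlapping groups. Ppara, a regulator of fatty acid oxidation, gave -0.88 ± 0.24, Ppargc1b -0.66 ± 0.20, and both were below WT in every KO library without passing the test. The summed share of 10 brown adipocyte markers was 2.28% to 2.39% in WT and 1.70% to 2.68% in KO.

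**Figure D3:**
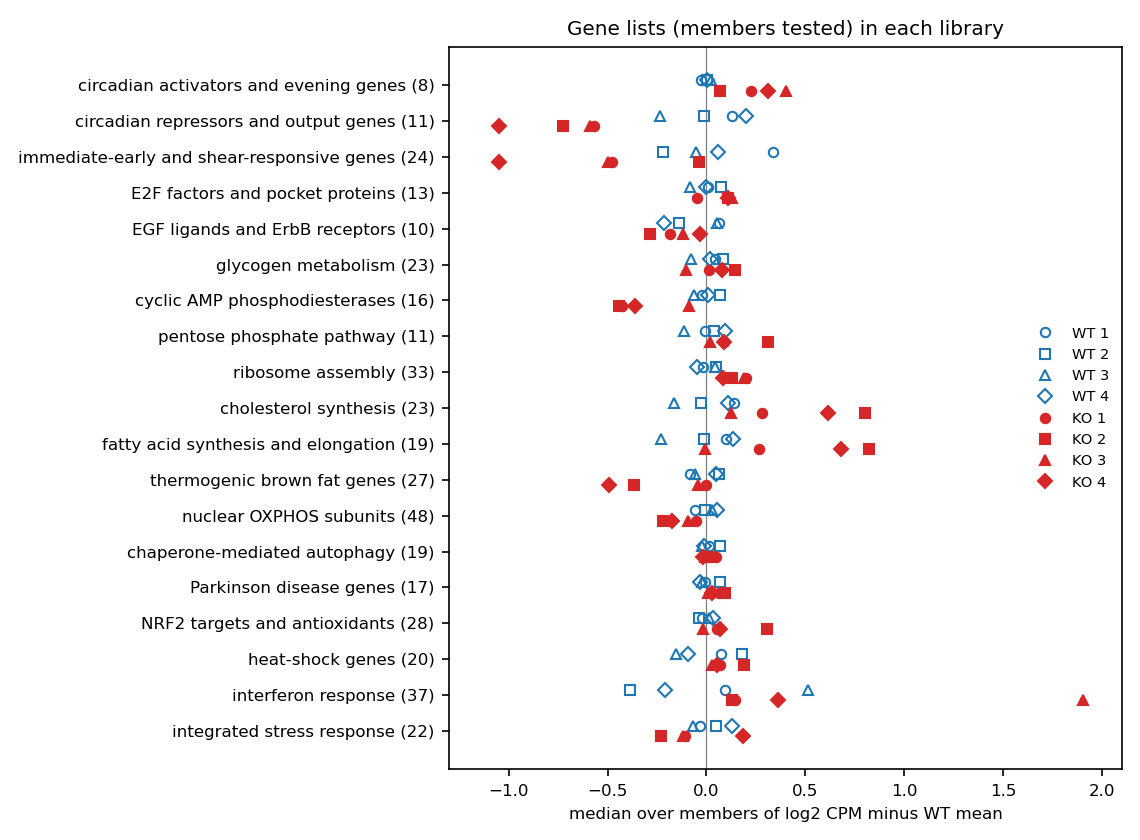
Median log2 CPM of each gene list in each room-temperature library, relative to the mean of the 4 WT libraries (x axis); open blue symbols are WT, filled red symbols KO, and the number of tested members is in brackets. KO replicates 2 and 4 lead the lipid lists, at 0.82 and 0.68 for fatty acid synthesis, and KO replicate 3 alone leads the interferon list at 1.90.

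The lists for protein quality control, antioxidant defence and Parkinson disease genes held no call apart from Park7 itself. The median log2 fold change was 0.01 for 19 genes of chaperone-mediated autophagy, a lysosomal route for selected proteins. Its receptor gene Lamp2 measured 166, 177, 180 and 155 CPM in WT and 175, 158, 180 and 134 CPM in KO, overlapping groups with a log2 fold change of -0.07 ± 0.11. Its chaperone gene Hspa8 gave 0.32 ± 0.18, also with overlap. Medians were 0.08 for 17 Parkinson disease genes, 0.13 for 28 NRF2 targets and antioxidant genes, 0.06 for 20 heat-shock genes and 0.00 for 22 genes of the integrated stress response. In the last list Sesn2 and Cebpb gave -0.73 ± 0.18 and -0.72 ± 0.19, neither past the test. Of the NRF2 list Gsta3, a glutathione transferase, measured 3.52, 1.63, 2.85 and 3.77 CPM in WT and 8.71, 26.9, 6.89 and 25.4 CPM in KO, so KO replicates 2 and 4 were the highest of 4 KO libraries that all exceeded WT (log2 fold change 2.52 ± 0.53, edgeR adjusted p = 0.09607).

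As a list, the interferon response stood far above WT in a single library, KO replicate 3, though single members were also above WT in other KO libraries. All 37 tested interferon genes had a log2 fold change above 0, with a median of 0.80, and none was called; 11 had an unadjusted p under 0.05. The list stood at 0.14, 0.13, 1.90 and 0.36 in KO replicates 1 to 4 and between -0.38 and 0.51 in WT, and without KO replicate 3 the median was 0.18. Gbp10, of a family of near-identical interferon-induced GTPases whose reads may be shared, measured 2.80, 3.16, 21.1 and 2.80 CPM in KO and 0.779 to 2.06 CPM in WT. Rsad2, the antiviral enzyme viperin, followed with 14.3, 15.1, 37.4 and 24.6 CPM in KO and 8.50 to 14.4 CPM in WT.

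No marker list of another cell type held a called gene other than Cldn5. T and NK lymphocyte markers had a median of 0.57 over 12 genes, at shares of 0.000397% to 0.000483% in WT and 0.000418% to 0.00103% in KO, KO replicate 2 the highest. Medians were 0.20 for 13 macrophage markers, 0.34 for 7 white adipocyte markers, -0.19 for 9 pericyte and smooth muscle markers, -0.05 for 10 fibroblast markers, -0.16 for 7 Schwann cell and nerve markers, -0.27 for 7 erythroid markers and -0.01 for 14 skeletal muscle markers. They were 0.06 for 7 B lymphocyte markers, -0.10 for the 3 of 6 neutrophil markers tested and -0.30 for the 1 of 7 mesothelial and epithelial markers tested.

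The number of calls depended on which KO libraries were used. Leaving out KO replicate 2 left 5 genes, and so did leaving out KO replicate 4: Park7, Btc, Gem, E2f2 and Tob2 in both. Leaving out KO replicate 1 or 3 raised the number to 60 or 58. With KO replicates 2 and 4 both left out, 5 of 15367 genes were called (0.0325%), namely Park7, Btc, Gem, E2f2 and Slc16a7, and 779 stood at an unadjusted p under 0.05 (5.07%). The converse, keeping only those 2 KO libraries, gave 339 genes, 183 higher and 156 lower, which included 32 of the 36. All other pairs left out gave 6 to 9 genes. WT libraries mattered too: leaving out WT replicate 1, 2, 3 or 4 left 25, 7, 16 or 11 genes.

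Since the groups of all 36 called genes do not overlap, leaving out KO libraries could not turn their sign. Without KO replicates 2 and 4 their median absolute log2 fold change went from 0.86 to 0.72 and 31 of them moved closer to 0. KO replicates 2 and 4 were the 2 libraries farthest from the WT mean in 19 of the 36 genes (52.8%) and in 32.9% of all genes. Slc16a7, a monocarboxylate transporter, was called without them and not with all 8 libraries. It measured 19.6, 22.6, 19.6 and 20.5 CPM in WT and 11.7, 17.5, 13.3 and 19.2 CPM in KO, so that here KO replicates 2 and 4 were the nearest to WT.

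**Figure D4:**
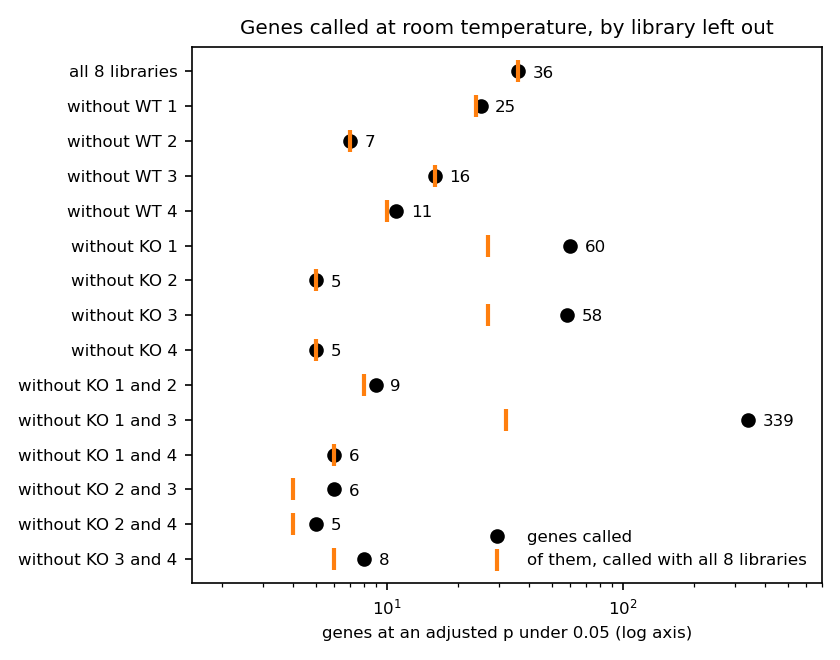
Number of genes called in KO against WT at room temperature (log axis) with all 8 libraries and with 1 library or 2 KO libraries left out; dots are all calls and bars the calls shared with the 36. The count falls to 5 without KO replicate 2 or 4 and reaches 339 when KO replicates 1 and 3 are left out.

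Most of the genes with the strongest weight on the first component were not called. On its lower side were Irs2, the insulin receptor substrate, with 77.2, 105, 69.5 and 64.6 CPM in WT and 36.7, 17.2, 10.1 and 3.70 CPM in KO, and the lipid transporter gene Mfsd2a at 5.82, 0.759, 0.725 and 0.122 CPM in KO. In both genes KO replicate 3 was slightly or clearly below KO replicate 2, so their order differs from that on the component. Irs2 was below WT in every KO library, whereas KO replicate 1 of Mfsd2a reached the WT range of 5.21 to 36.0 CPM. On the higher side, leptin (Lep), a hormone made in quantity by white fat, measured 36.8, 7.64, 7.77 and 8.92 CPM in WT and 24.5, 77.8, 5.96 and 68.7 CPM in KO. Its log2 fold change of 1.53 ± 0.75 was -0.01 without KO replicates 2 and 4. The potassium channel subunit gene Kcng4 turned likewise, from 2.11 ± 0.90 to -0.78, and was highest in KO replicate 2, at 22.1 CPM.

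The same genotype contrast at 29 °C shares no library with the one at room temperature, and showed which of the 36 genes responded there. Both contrasts do use the same estimate of each gene's spread, from all 15 libraries. At 29 °C 24 of the 36 were called, where 44.7% of all genes were called. A low spread favours a call in both contrasts, so these calls are not independent of the choice of the 36. Only 9 of these 24 had the same direction at both temperatures, 7 lower and 2 higher, while 15 had the opposite direction: 12 fell at room temperature and rose at 29 °C, and 3 did the reverse. The difference between the KO effects was itself called for 27 of the 36 genes, against 28.3% of all genes. The room-temperature effect, by which the 36 were chosen, is part of that difference. The choice alone raises their share, so the excess over all genes cannot be read as a result.

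Park7 had nearly the same effect in both, -1.97 ± 0.12 and -1.90 ± 0.13. Klf2, Cldn5, Adamts1, Ndufs7, Tns2 and Pde4b fell at both temperatures, Cldn5 by 1.76 ± 0.26 and Klf2 by 1.31 ± 0.22 at 29 °C. Rpf2 and Rrp8 rose at both, by 0.66 ± 0.11 and 0.30 ± 0.10 at 29 °C. Btc, by contrast, rose by 1.56 ± 0.18 at 29 °C, where its mean was 3.21 CPM in WT and 9.51 CPM in KO. Gem rose by 0.92 ± 0.29. E2f2 fell there by 2.02 ± 0.20, with means of 26.8 CPM in WT and 6.61 in KO, and Arntl by 2.35 ± 0.28, with means of 25.6 and 5.04 CPM. Nr1d2 and Pde4d rose by 1.29 ± 0.14 and 1.33 ± 0.17. The 3 most stable genes of the room-temperature contrast after Park7 thus all had the reverse sign at 29 °C. Fam46a gave -0.11 ± 0.35 at 29 °C and was not called.

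**Figure D5:**
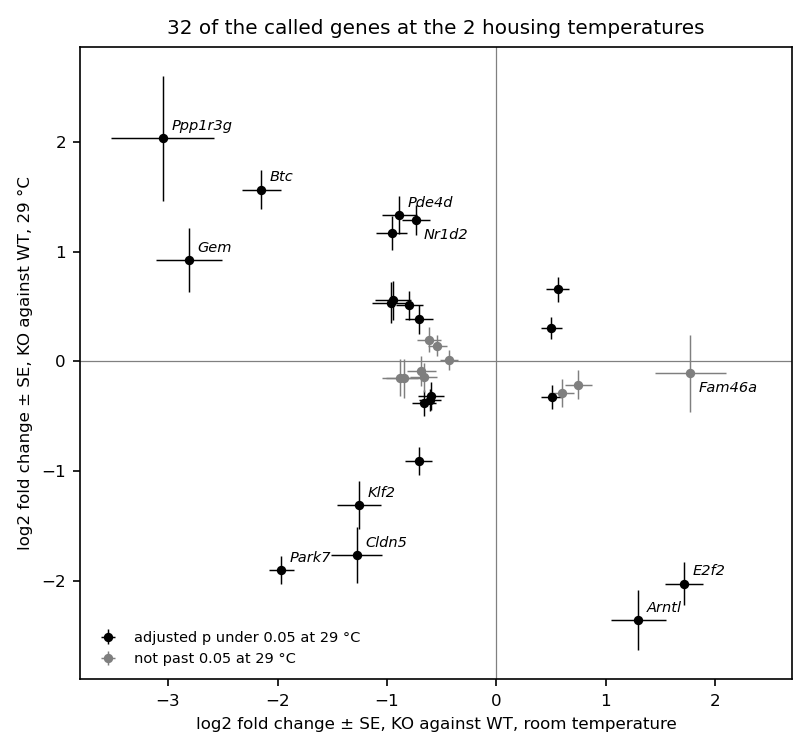
Log2 fold change ± SE of KO against WT at room temperature (x axis) and at 29 °C (y axis) for 32 of the 36 called genes; black points also passed an adjusted p of 0.05 at 29 °C. Park7 lies at -1.97 and -1.90, while Btc (-2.15 and 1.56) and E2f2 (1.71 and -2.02) lie in the quadrants of opposite sign.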

How the data were processed

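Brown adipose tissue RNA was sequenced in 15 libraries. Per the submitters' processing notes, reads were aligned to mm10 with STAR 2.7.10a, and gene levels were estimated by RSEM 1.2.28; the submitters' own test was DESeq2, listed as version 1.3.40. The authors deposited 1 table of RSEM expected counts for 24030 gene symbols, of which 7.26% of the values have decimals; they were rounded to whole counts here. No source used here states whether the libraries are stranded, so overlapping or antisense genes and near-identical copies may share reads. Spreadsheet dates replaced 24 symbols, and no value is given for them.

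Genes passing edgeR's filterByExpr by group at a minimum count of 10 (15083) were scaled by TMM. A robust quasi-likelihood model of the 4 groups with 11 residual degrees of freedom (edgeR 4.0.16, limma 3.58.1, R 4.3.3) gave KO against WT at room temperature, at 29 °C and the interaction, with Benjamini-Hochberg adjustment over all genes tested. A prior count of 1 was used in log2 CPM for lists and components. Positions are from GENCODE M21 (GRCm38, the same build as mm10).

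The comparison, the 19 gene lists and the 13 marker lists were chosen with earlier results of these data known. The rule names Park7, 5 fixed genes, called genes without predicted symbols, genes called without KO replicates 2 and 4, the 3 members of each list with the smallest p, and 8 genes at each end of the first component. Leaving predicted symbols out of the component genes was decided after their values were seen. The rule gives 92 genes; 68 are reported, of which Per3, Dbp, Nr1d1 and E2f3 were added as family members. Some genes, 1 called gene among them, are not reported here; counts over all genes and lists include them. Simulated data with known changes at room temperature were tested on 14680 genes: 25.4%, 71.6% and 95.5% of genes changed 1.5-, 2- and 4-fold were recovered, and 10 unchanged genes were called.

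Alternatives were RLE size factors, no filter, a stricter filter (1 CPM in 4 libraries), the 8 libraries alone, a replicate block, DESeq2 1.42.0, limma-voom, the fit without its robust option, other thresholds, each library left out, and KO replicates 2 and 4 left out. Leaving out the 5 other pairs of KO libraries was added after the data were seen.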

Additional observations from a re-analysis of the deposited data

Results flagged for a closer look

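In 10 of 142 groups of 4 libraries (7.04%; WT and KO for each of 68 genes reported and 3 library measures, where chance gives about 5%), 1 library lay apart from the other 3 of its group. Among called genes these were Tob2 in KO replicate 4 (127.5 CPM, the lowest), Fbxo21 and Nr1d2 in KO replicate 1 (118.5 and 76.8 CPM, both the nearest to WT), and Pacs1 in WT replicate 4 (25.9 CPM, the farthest from KO). Among genes not called they were Mfsd2a in WT replicate 2 (36.0 CPM) and KO replicate 1 (5.82 CPM), Nr4a1 in WT replicate 3 (461 CPM), Lep in WT replicate 1 (36.8 CPM), Gbp10 in KO replicate 3 (21.1 CPM) and E2f3 in KO replicate 4 (9.02 CPM). Only Tob2 and E2f3 had KO replicate 2 or 4 as the library apart. The measure can flag only 1 library standing alone in its group. It cannot flag KO replicates 2 and 4 where they moved together, as for Ucp1 at 4953 and 4778 CPM, so it does not show how often they stood apart.

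For 46 of the reported genes the KO effect at 29 °C differed from that at room temperature by the interaction term of the edgeR fit, at an adjusted p under 0.05. Over all genes tested the share was 28.3%. Many of the reported genes were chosen by their room-temperature effect, which is part of this difference, so the number cannot be set against that share. The values that follow are log2 differences, the effect at 29 °C minus that at room temperature. Of genes that fell at room temperature, the difference was 5.08 for Ppp1r3g, 3.73 for Gem, 3.71 for Btc, 2.22 for Pde4d, 2.13 for Tob2, 2.03 for Nr1d2, 1.50 for Fbxo21, 1.50 for Plekhf1, 1.30 for Kdm6b and 1.09 for Cenpo. It was smaller for Mxd1 (0.81), Irx3 (0.74), Zfp395 (0.69), Sox6 (0.68), Heyl (0.60), Oaf (0.52) and Pacs1 (0.45). Of genes that rose it was -3.74 for E2f2, -3.65 for Arntl, -1.88 for Fam46a, -0.96 for Rpia, -0.89 for Elovl5 and -0.83 for Lins1.

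Among genes not called at room temperature, the clock genes had differences of 4.80 for Dbp, 2.20 for Per3, 1.74 for Nr1d1 and -4.58 for Npas2. Genes of heat production and oxidation had 3.53 for Dio2, 3.12 for Ucp1, 2.61 for Ppargc1a, 1.59 for Ppara and 1.27 for Ppargc1b. Genes with strong weight on the first component had 5.82 for Mfsd2a, 4.71 for Irs2, 4.03 for Nr4a1 and 2.45 for Nr4a3. The remaining positive differences were 2.61 for Pde7b, 2.14 for Cebpb, 1.56 for Sesn2, 0.99 for Slc16a7, 0.84 for G6pdx and 0.80 for Lamp2. The remaining negative ones were -1.15 for Hspa8, -0.93 for Msmo1, -0.71 for Ppp1r3c and -0.56 for E2f3. The interaction was not refitted without KO replicates 2 and 4.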

How the results depend on the processing

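Of 2750 single-gene and list values under alternatives, 2201 kept their direction and side of the threshold, and 472 lost a call in the same direction. A further 43 gained a call, 25 values without a test, mostly list medians, moved and 9 changed sign. Only values of the 32 called genes reported could lose a call. The 472 are therefore a far larger share of those values than of the 2750, most of which had no call to lose. The 36 calls (8 higher, 28 lower) became 236 (97 and 139) with DESeq2, in which 885 adjusted p-values were missing, and 4 (1 and 3) at an adjusted p under 0.01. Calls higher in KO numbered 2 with RLE size factors, 3 with no filter on low counts, 3 with limma-voom, 5 over 1.5-fold and 5 with only the room-temperature libraries. That last fit called 26 genes in all and kept 18 of the 36. Park7, Btc, Gem, E2f2, Ppp1r3g and Ndufs7 were among those kept. Arntl, Nr1d2, Klf2, Cldn5, Adamts1, Pde4d, Tob2, Kdm6b, Elovl5 and Rpia were among those lost, so their calls also rest on the spread in the libraries at 29 °C. The replicate numbers gave no clear sign of pairing: same-numbered KO and WT deviations correlated at -0.09, -0.03, 0.19 and 0.10. For numbers 1 and 2 another number correlated better, and for 3 and 4 the same number did best. Correlations this weak cannot exclude a pairing. With the replicate block 25 genes were called, 5 of them higher, and with only the room-temperature libraries and the block 3 genes, 0 higher and 3 lower. Leaving out 1 library gave 5 to 60 calls, 1 to 24 higher and 4 to 37 lower; the low end came without KO replicate 2 or 4, and without KO replicate 2 at 29 °C there were 19. Leaving out KO replicates 2 and 4 gave 5 calls (1 higher, 4 lower), 1 and 2 gave 9 (1 and 8), 1 and 3 gave 339 (183 and 156), 1 and 4 gave 6 (1 and 5), 2 and 3 gave 6 (2 and 4), and 3 and 4 gave 8 (3 and 5). The cause of these shifts was not tested. Some genes that were not called turned sign. Without KO replicates 2 and 4 the log2 fold change was -0.78 for Kcng4, -0.007 for Lep, 0.087 for Ucp1 and 0.065 for Lamp2. Leaving out 1 library moved Lamp2 between -0.13 and 0.01 and Nr1d1 between -0.12 and 0.029; Nr1d1 gave 0.033 without KO replicates 1 and 3 and 0.074 without 2 and 3. With 4 libraries a group, most changes of 1.5-fold were missed in simulated data, so a gene that was not called may still differ.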
